A study of Mus musculus with 6 samples.

Results

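Angiogenic ligands of the VEGF, angiopoietin and angiopoietin-like families were examined in mouse skin fibroblasts (MSFs) with and without activation of a senescence-inducing p27Kip1 allele. The members were the 9 genes Vegfa, Vegfb, Vegfc, Figf, Pgf, Angpt1, Angpt2, Angptl2 and Angptl4, found by their symbols among the 22162 genes of the deposited table, and each symbol matched 1 row. Both groups came from the dorsal skin of FASST mice on an FVB/N background, which carry a tamoxifen-dependent Cre under the pro-alpha 2(I)collagen promoter and a lox-stop-lox p27Kip1 transgene with GFP at ROSA26. In the TAM group (3 libraries, labelled senescent) cells received 10 µM tamoxifen for 48 h, and in the EtOH group (3 libraries, labelled non-senescent) they received the ethanol vehicle, all at 3% oxygen. The vehicle cells thus carry the same silent transgene, and tamoxifen-treated cells without the transgene were not analysed here. The methods describe the MSF line as isolated from a single female mouse, and no source states that the replicates were separate animals, so p-values measure the spread between these libraries, which may be technical. The age of that mouse and the time from treatment to RNA collection are not given in the sources used here.

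VEGF ligands are secreted dimers that bind receptor tyrosine kinases on endothelial cells. VEGF-A, the product of Vegfa, acts mainly through KDR and is induced by the hypoxia-inducible factors when oxygen is low, VEGF-B and placental growth factor bind FLT1, and VEGF-C and VEGF-D (Figf) drive growth of lymphatic vessels through FLT4. Angiopoietin 1 activates the TIE2 receptor and steadies vessels, and angiopoietin 2 is known as a context-dependent antagonist of it. The angiopoietin-like proteins share the fold of the angiopoietins but do not bind TIE2. ANGPTL4 is known as an inhibitor of lipoprotein lipase, and ANGPTL2 as an inflammatory mediator made by stromal and fat cells.

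The upstream sequence of Vegfa is shown because its level, like that of most listed hypoxia-responsive genes, was highest in EtOH replicate 2. The 1000 bases before the annotated start of each gene in mm9 were searched on both strands for TACGTGGG, the letters known from the hypoxia response element of VEGF genes. Of the 9 members, Vegfa held 1 copy, starting 924 bases upstream, and the other members held 0. The same 8 letters occurred in 198 of 22148 such windows (0.894%). The stretch around the match lies on chromosome 17, chr17:46170203-46170290, and is written 5′ to 3′ on the minus strand, which is the strand of the gene, with the match in capitals.
Vegfa upstream: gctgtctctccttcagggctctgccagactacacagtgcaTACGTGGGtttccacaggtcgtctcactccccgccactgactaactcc
The shorter core, ACGTG or GCGTG on either strand, also lies within that match and was present in 71.9% of all windows. It occurred 6 times in the window of Vegfa, 7 times in that of Angptl4 and once in that of Angpt1. A match of letters is a description of the sequence and was not tested as a binding site.

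The libraries summed to between 14952367 and 17314953 normalized counts, the unit of the deposited table. The number of reads behind these values is known for 1 library only, so no counting intervals are given. Cdkn1b, the mouse gene for p27Kip1, had 1427, 3074 and 1853 normalized counts in EtOH replicates 1, 2 and 3 and 1699, 1520 and 1630 in TAM replicates 1, 2 and 3. Whether that row includes transgene reads is not stated, and directions are given for the libraries as labelled. The fibroblast genes Col1a1, Col1a2 and Col3a1 had at least 114898 normalized counts in every library. Summed over 10 fibroblast markers, the EtOH libraries held 1590436 to 1771552 normalized counts and the TAM libraries 732742 to 1161004, without overlap, and the part of this in the differences of the ligands was not tested. Of 17 endothelial markers, 12 stayed under 16 normalized counts in every library, and Cldn5 and Sox17 were listed at 0 in all 6. Replicate 2 stood apart in both groups. Weights that limma estimates from how well a library fits its group were 0.292 and 0.288 for EtOH and TAM replicate 2, against 0.931 to 4.06 for the other 4 libraries.

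Levels of different genes were compared per kilobase of annotated exon. In the EtOH libraries the highest mean was that of Vegfa with 1400 ± 1558 (SD, n = 3) normalized counts per kb, followed by Figf with 1330 ± 485, Angptl4 with 1051 ± 514 and Angptl2 with 729 ± 614. These 4 genes overlapped in their ranges and so have no settled order. Vegfb had 283 ± 65.8 and Vegfc 63.7 ± 15.1 normalized counts per kb, and their ranges were the only neighbours in the EtOH order that did not overlap. Angpt1, Pgf and Angpt2 closed the order with means of 30.5, 14.1 and 6.73 per kb. In the TAM libraries Angptl2 had the highest mean with 1699 ± 333 (SD, n = 3) normalized counts per kb, before Figf, Angptl4 and Vegfa with 1244 ± 699, 985 ± 595 and 511 ± 105. Here the only neighbours whose ranges stayed apart were Vegfa and Vegfb, the latter at 208 ± 61.1 per kb. Angpt1 stood above Vegfc in the TAM order, with 121 ± 42.5 against 72.4 ± 30.7 normalized counts per kb, though their ranges overlapped.

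**Figure D1:**
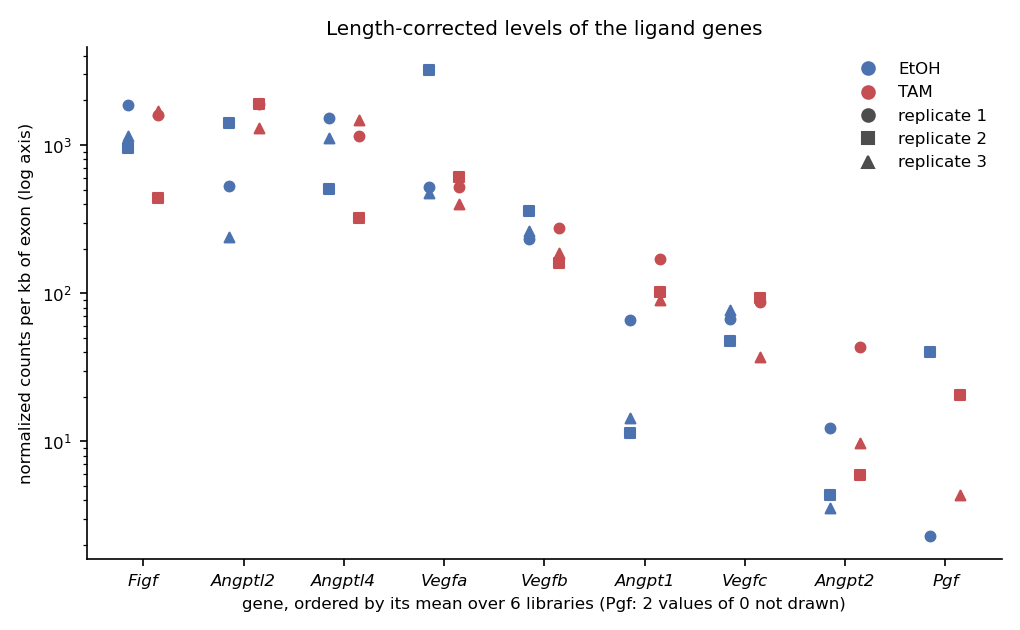
Normalized counts per kb of annotated exon (log axis) for the 9 ligand genes, ordered by the mean over 6 libraries, with EtOH libraries in blue, TAM libraries in red and a marker shape for each replicate number. Figf, Angptl2, Angptl4 and Vegfa form the upper part, and the blue square of Vegfa (EtOH replicate 2) stands at 3199 per kb.

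Figf and Vegfa together made up most of the VEGF ligand transcripts per kb. Figf took 69.5% and 58.6% of the summed level of the 5 VEGF genes in EtOH replicates 1 and 3, and 64.2% and 73.0% in TAM replicates 1 and 3. In replicate 2 the share of Figf was lower in both groups, at 20.8% in EtOH and 33.3% in TAM. Vegfa took 69.6% in EtOH replicate 2 and 46.0% in TAM replicate 2, against 17.2% to 24.2% in the other 4 libraries. In both groups replicate 2 was thus the library with the smallest Figf share and the largest Vegfa share. Splice forms of Vegfa cannot be told apart in a table of whole genes.

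**Figure D2:**
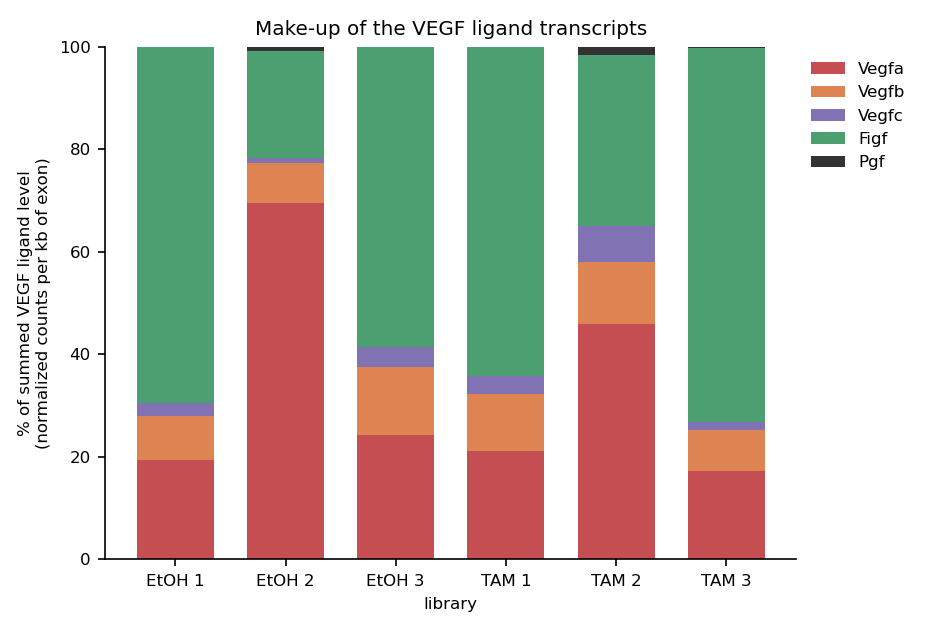
Share (%) of each VEGF ligand gene in the summed normalized counts per kb of the 5 genes, 1 bar per library. Figf (green) is the largest part in replicates 1 and 3 of both groups, and Vegfa (red) is the largest part in both replicate 2 libraries.

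The comparison of TAM with EtOH asked whether the angiogenic ligands differed between MSFs labelled senescent and non-senescent. Of the 9 members, 8 reached 1 c.p.m. (16.2 normalized counts) in at least 3 libraries and were tested. By limma's moderated test of log2(normalized counts + 1), 0 of the 8 passed an adjusted p of 0.05, as did 0.244% of all 11877 genes tested. With the replicate number as a block, 0 of the 8 passed, and 1.62% of all genes did. At an unadjusted p under 0.05 there were 2 members, Angpt1 and Angptl2, against 13.4% of all genes, and 3 with the block, Angpt2 being the third, against 17.0%. The median log2 difference of the 8 members was −0.06, beside −0.03 over all genes tested. Angpt1, Angpt2 and Angptl2 had the higher value in the TAM library in all 3 pairs of the same number, a pattern that 18.3% of all genes shared. Vegfa had the lower value in all 3 pairs, as did 23.6% of all genes. In pair 1 its values were nearly equal, with 2256 normalized counts in EtOH and 2249 in TAM. An exact permutation test of 3 against 3 libraries cannot go below p = 0.1, two-sided.

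**Figure D3:**
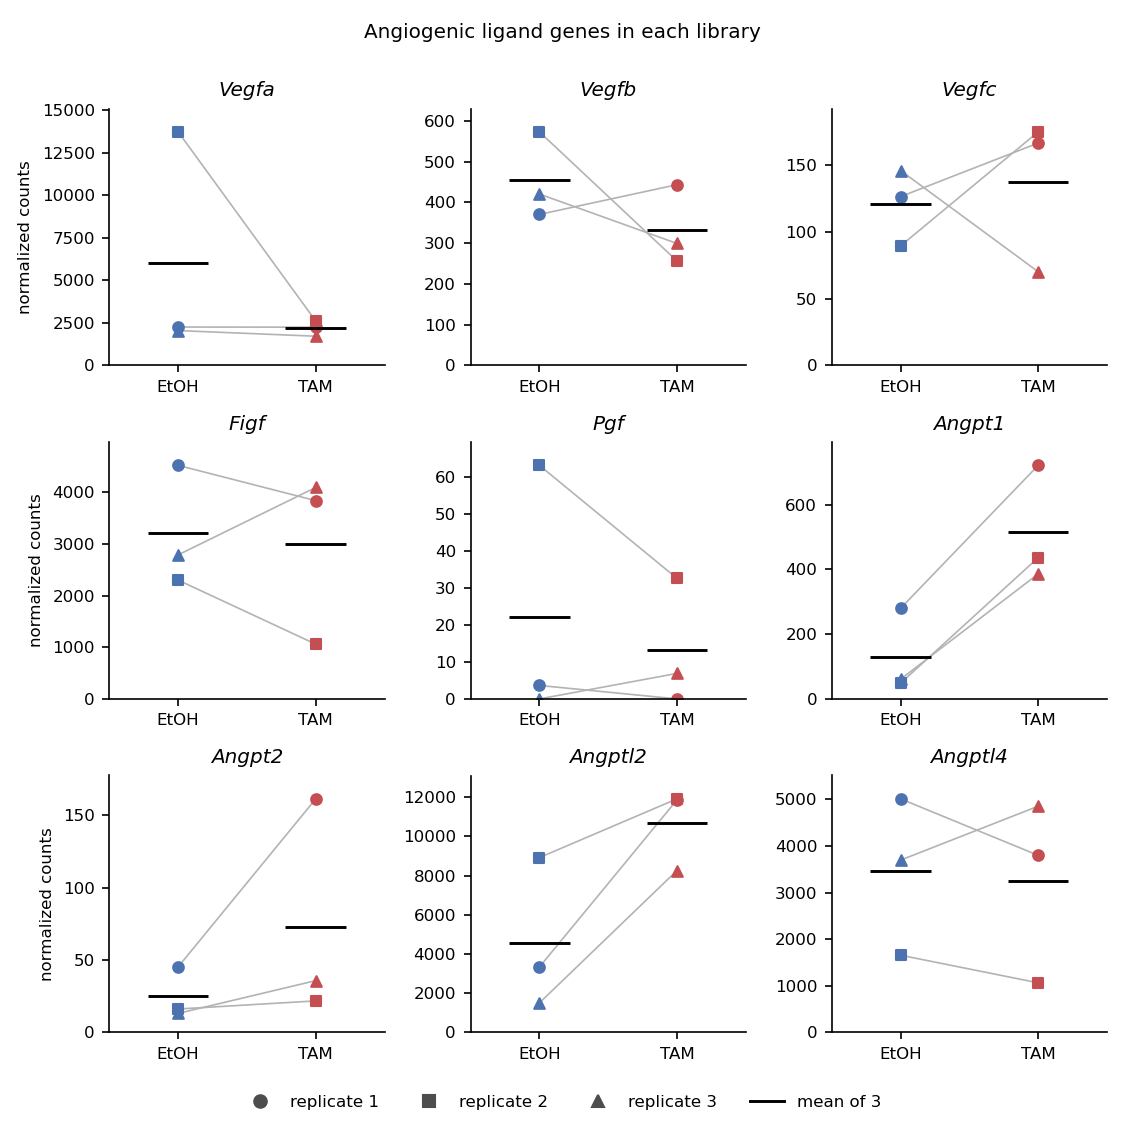
Normalized counts (linear axes from 0) of the 9 ligand genes in EtOH and TAM libraries, with a marker for each replicate number, grey lines joining libraries of the same number and black bars for the mean of 3. Angpt1, Angpt2 and Angptl2 lie higher in TAM along all 3 lines, and Vegfa has a single high value of 13732 in EtOH replicate 2.

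Vegfa (ENSMUSG00000023951; chromosome 17 of mm9, 46153942 to 46169326) had 2256, 13732 and 2049 normalized counts in EtOH replicates 1, 2 and 3 and 2249, 2609 and 1717 in TAM replicates 1, 2 and 3. The EtOH replicate 2 value was 5.26 times the highest of the other 5, and those 5 lay close together with both groups mixed. The log2 difference, TAM minus EtOH, was −0.88 with a 95% interval of −2.52 to 0.75 (limma adjusted p = 0.632). Without EtOH replicate 2 the difference was 0.01 (standard error 0.22, limma adjusted p = 0.992), and without both replicate 2 libraries it was −0.13 (limma adjusted p = 0.725), so its size rests on that library.

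Vegfb (ENSMUSG00000024962; chromosome 19, 7056963 to 7062141), which encodes a ligand of FLT1, had 371, 573 and 421 normalized counts in the EtOH libraries and 444, 256 and 299 in the TAM libraries. The groups overlapped through the first replicate, and the log2 difference was −0.46 with a 95% interval of −1.10 to 0.18. Vegfc (ENSMUSG00000031520; chromosome 8, 55162886 to 55271808), the main lymphatic growth factor gene, had 127, 89.6 and 146 in EtOH and 167, 175 and 70.2 in TAM. For Vegfc the log2 difference of 0.10 had an interval of −0.85 to 1.05, and the pairs went in both directions. Its sign turned when EtOH replicate 2, TAM replicate 1 or TAM replicate 2 was left out.

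Figf (ENSMUSG00000031380; chromosome X, 160811310 to 160840582), the gene of VEGF-D, had 4520, 2299 and 2788 normalized counts in the EtOH libraries and 3837, 1059 and 4092 in the TAM libraries. The lowest value of each group was that of replicate 2, and the groups overlapped almost entirely. Its log2 difference was −0.27 with an interval of −1.54 to 1.01, and it turned to 0.01 without EtOH replicate 1 and to 0.37 without TAM replicate 2 (limma adjusted p = 0.644 for the latter). Pgf (ENSMUSG00000004791; chromosome 12, 86507589 to 86518246), for placental growth factor, was not tested because only EtOH replicate 2 with 63.3 and TAM replicate 2 with 32.7 normalized counts passed 1 c.p.m. The other 4 Pgf values were 3.65 and 0 in EtOH replicates 1 and 3, and 0 and 6.91 in TAM replicates 1 and 3. Pgf was therefore near the limit of detection outside replicate 2, and a value listed at 0 does not show absence.

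Of the members tested, Angpt1 had the largest log2 difference. Angpt1 (ENSMUSG00000022309; chromosome 15, 42256273 to 42508523) had 280, 48.6 and 61.0 normalized counts in EtOH replicates 1, 2 and 3 and 722, 437 and 386 in TAM replicates 1, 2 and 3. All 3 TAM values lay above all 3 EtOH values, a separation in this direction that 9.19% of all genes tested showed. The difference in log2 level was 2.38 with a 95% interval of 0.86 to 3.90 (limma adjusted p = 0.206). The blocked fit gave an interval of 1.44 to 3.33 (limma adjusted p = 0.0587). Angpt1 passed the threshold only when pair 1 or pair 2 was left out of the blocked fit, with limma adjusted p = 0.0179 and 0.0276. A gene on the other strand, Gm17473, overlaps 6.65% of the exon bases of Angpt1, and the strand setting of the counting is not given in the sources used here.

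Angpt2 (ENSMUSG00000031465; chromosome 8, 18690263 to 18741562) lies inside Mcph1, a gene on the other strand, with no shared exon bases. Its level was low, with 45.2, 16.2 and 13.1 normalized counts in the EtOH libraries and 161, 21.8 and 35.8 in the TAM libraries. Each TAM value was above its same-numbered EtOH value, but TAM replicates 2 and 3 lay below EtOH replicate 1. The log2 difference was 1.20 with an interval of −0.70 to 3.10 (limma adjusted p = 0.581), and 0.20 to 2.20 with the block (limma adjusted p = 0.230). Leaving out TAM replicate 1 lowered it to 0.37. Angpt1 was more abundant than Angpt2 in every library, at 2.61 to 5.36 times its per-kb level in EtOH and 3.88 to 17.4 times in TAM, so the ranges of this ratio overlapped.

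Angptl2 (ENSMUSG00000004105; chromosome 2, 33071589 to 33103237), which lies inside the oppositely oriented gene Ralgps1 with no shared exon bases, had 3332, 8917 and 1502 normalized counts in EtOH and 11863, 11913 and 8258 in TAM. The TAM values were tightly grouped, and EtOH replicate 2 alone reached into their range. The log2 difference was 1.57 with an interval of 0.18 to 2.96 (limma adjusted p = 0.320), and 0.54 to 2.60 with the block (limma adjusted p = 0.160). Without both replicate 2 libraries the blocked difference was 2.14 (limma adjusted p = 0.00857), in a fit of 2 pairs where 7.78% of all genes were called. With library weights it was 1.87 (limma adjusted p = 0.0432), in a fit that called 6.25% of all genes.

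Angptl4 (ENSMUSG00000002289; chromosome 17, 33910695 to 33918520) had 5009, 1656 and 3695 normalized counts in the EtOH libraries and 3797, 1063 and 4851 in the TAM libraries. As for Figf, replicate 2 was the lowest library of each group, and the group means of 3453 and 3237 were close. The log2 difference was −0.22 with an interval of −1.71 to 1.28 without the block, and −0.84 to 0.41 with it, and its sign turned when EtOH replicate 1 or TAM replicate 2 was left out. Lpl, which encodes the lipase that ANGPTL4 inhibits, was also lowest in replicate 2 of each group, at 15244 and 4400 normalized counts against 21923 to 38405 in the other libraries.

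**Figure D4:**
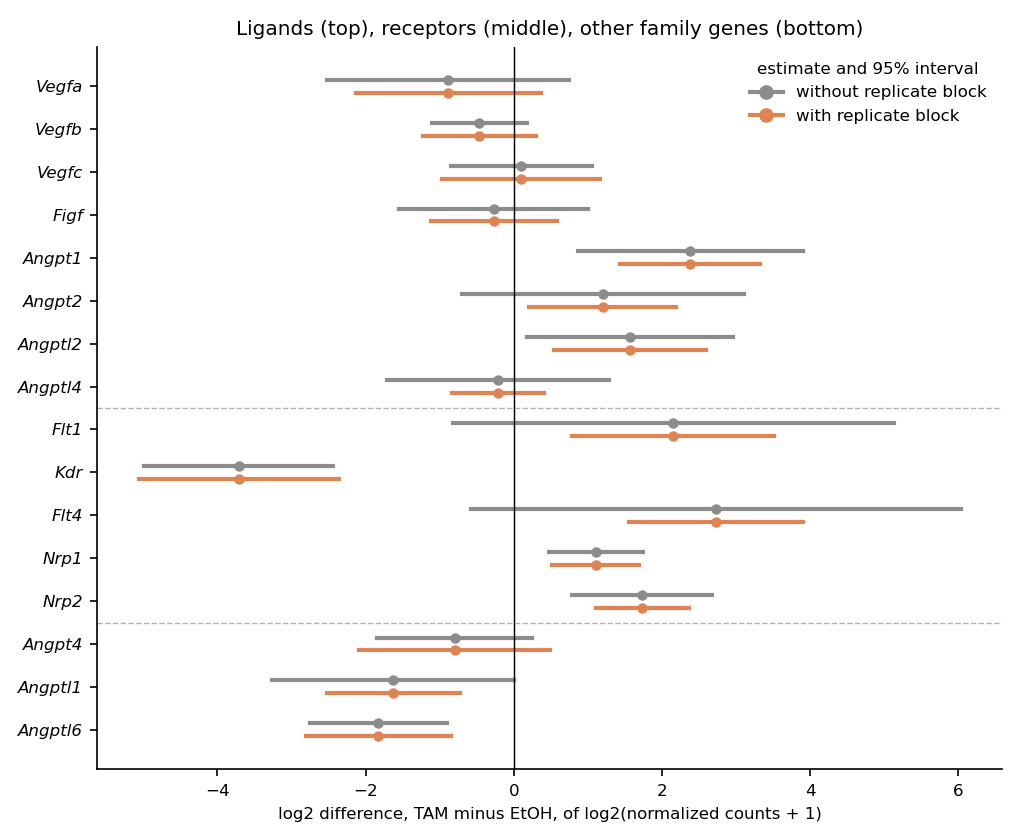
Log2 differences, TAM minus EtOH, of log2(normalized counts + 1) with 95% intervals from limma, without the replicate block (grey) and with it (orange), for the 8 tested ligands, 5 VEGF receptors and co-receptors and 3 other angiopoietin family genes. Kdr lies farthest to the left at −3.71, and Angpt1 is the ligand farthest to the right at 2.38.

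Several members stood apart in replicate 2. In EtOH replicate 2, Vegfa, Pgf and Angptl2 were more than 2-fold above both other EtOH libraries, as were 6.47% of all genes tested, and Angptl4 was more than 2-fold below both, as were 3.30%. In TAM replicate 2, Pgf was more than 2-fold above both other TAM libraries, where 6.04% of all genes were, and Figf and Angptl4 were more than 2-fold below both, where 4.80% were. High Vegfa was thus seen in EtOH replicate 2 alone, and low Angptl4 in replicate 2 of both treatments.

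Most genes in a list of 20 hypoxia-responsive genes shared with Vegfa a high value in EtOH replicate 2. Of the 20 genes, 18 had their highest value of all 6 libraries in EtOH replicate 2, and 15 were there more than 2-fold above both other EtOH libraries. The median gap of the list to the mean of EtOH replicates 1 and 3 was 2.81 on the log2 scale, against −0.02 over all genes tested. Ankrd37 had 1135 normalized counts in EtOH replicate 2 and 22.4 to 55.8 elsewhere, Ero1l, a folding oxidase gene, had 60574 against 1836 to 4587, and Slc2a1, the glucose transporter gene, had 12302 against 608 to 2271. Egln3, which encodes an oxygen-sensing hydroxylase, stood at 2904 against 48.2 to 97.2. Without EtOH replicate 2, Vegfa had means of 2152 normalized counts in EtOH and 2192 in TAM. On the same libraries Slc2a1 had 610 and 1498, and Ero1l 4073 and 2140, so their likeness to Vegfa rests on EtOH replicate 2. In TAM replicate 2 only Hk2, Pgk1 and Ldha of the list, all glycolytic, were more than 2-fold above both other TAM libraries, and the median gap was 0.09. Angptl4, also known to respond to hypoxia, had its second-lowest value of 1656 in EtOH replicate 2. The part of oxygen supply in the Vegfa value was not tested.

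**Figure D5:**
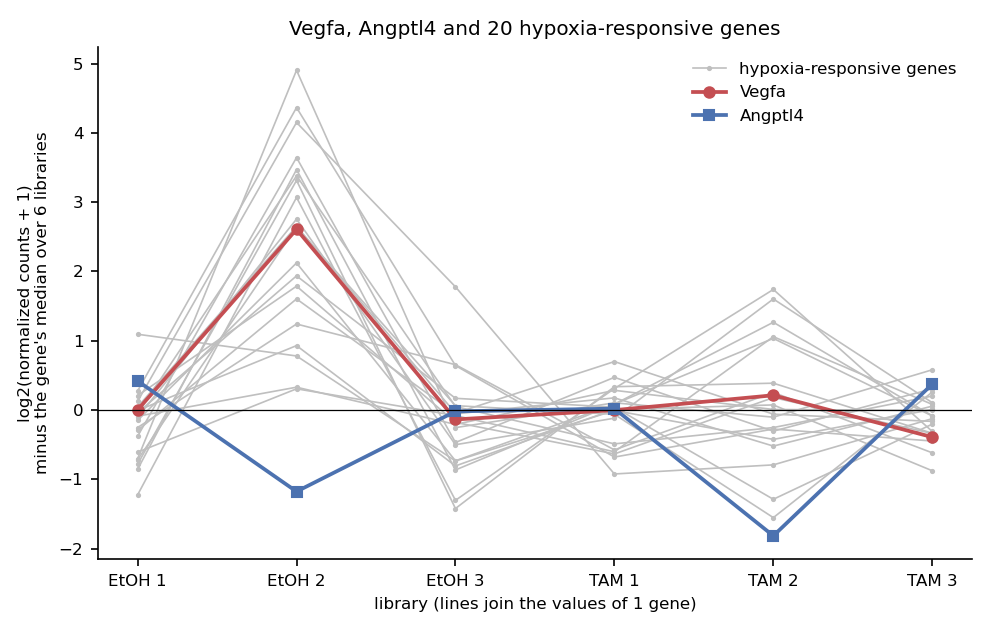
Log2(normalized counts + 1) minus the gene's median over the 6 libraries for Vegfa (red), Angptl4 (blue) and 20 hypoxia-responsive genes (grey), by library. Vegfa and 18 of the 20 genes peak in EtOH replicate 2, where Angptl4 is low.

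By treatment, 0 of the 20 hypoxia-responsive genes passed the limma test with or without the block, and at an unadjusted p under 0.05 without the block 0 were higher, against 6.67% of all genes, and 1 was lower, against 6.70%. With the block 0 were higher, against 8.64% of all genes, and 4 were lower (Aldoc, Ero1l, P4ha1 and Vldlr), against 8.32%. Their median log2 difference was −0.62. Hk2 had the largest positive difference, 0.40, and Aldoc, a glycolytic aldolase gene, the largest negative one, −2.63 (limma adjusted p = 0.292). Without both replicate 2 libraries the median turned to 0.28, and 5 of the 20 were called in the blocked fit, where 7.78% of all genes were. Of these, 4 were higher in TAM, against 4.44% of all genes, namely Bnip3, Slc2a1, Pfkfb3 and Hk2, by 0.81 to 1.26 on the log2 scale. Ero1l was lower (−1.02), against 3.34% of all genes. Among 9 oxygen-sensing genes, Epas1, which encodes HIF-2α, had 82.6, 32.4 and 45.0 normalized counts in EtOH and 505, 351 and 233 in TAM, with no overlap. Epas1 rose by 2.78 on the log2 scale in the blocked fit (limma adjusted p = 0.0274; 0.0633 without the block), also with any pair left out. Hif1a was at 2716 to 3161 normalized counts in EtOH and 3486 to 3784 in TAM (log2 difference 0.32, limma adjusted p = 0.437), and Hif3a had the largest negative difference of these genes, −1.45 (limma adjusted p = 0.337).

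All 5 VEGF receptors and co-receptors were tested, 0 of them called without the block and 2 with it, 1 in each direction. The blocked fit called 1.00% of all genes as higher and 0.615% as lower. Kdr, the main signalling receptor of VEGF-A, had 205, 68.7 and 116 normalized counts in the EtOH libraries and 4.84, 7.53 and 14.0 in the TAM libraries, without overlap. Kdr fell by 3.71 on the log2 scale in the blocked fit (95% interval −5.06 to −2.36, limma adjusted p = 0.0488), and its adjusted p was 0.0608 without the block by limma. The call on Kdr was kept when any pair was left out of the blocked fit. All TAM values of Kdr lay under 1 c.p.m. (16.2 normalized counts), so it entered the test only through EtOH, the group where it was high. The size of its fall also depended on the pseudocount. Without the block the difference was −2.81 with a pseudocount of 10 and −3.86 with 0.1. Of the endothelial markers, the vascular cadherin gene Cdh5 was between 0 and 4.80 normalized counts in all libraries and Pecam1 between 2.83 and 11.3, while Eng was between 1136 and 2846. Of the same markers, Kdr, Tek and Esam were lower in TAM in all 3 pairs. Eng, Prox1, Vwf, Erg and Lyve1 were higher in TAM in all 3 pairs, and of these only Eng passed the filter. The part of endothelial cells in the Kdr values was not tested. In such bulk libraries fewer cells with a transcript and less transcript per cell cannot be told apart.

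Nrp2, a neuropilin co-receptor for VEGF-C and semaphorins, had 1082, 1181 and 729 normalized counts in EtOH and 5587, 3268 and 1880 in TAM. Nrp2 rose by 1.73 on the log2 scale with the block (95% interval 1.11 to 2.36, limma adjusted p = 0.0481; 0.157 without the block), and the call was lost without pair 1 or pair 3. Nrp1, the co-receptor for VEGF-A, had 1212, 868 and 1647 in EtOH and 2121, 2784 and 2942 in TAM, also without overlap, with a log2 difference of 1.11 (limma adjusted p = 0.176, and 0.110 with the block). Flt1 had 193, 379 and 11.4 normalized counts in EtOH and 481, 959 and 171 in TAM, higher in all 3 pairs while the groups overlapped. For Flt1 the log2 difference of 2.15 had an interval of −0.82 to 5.13 without the block (limma adjusted p = 0.525). With the block the interval was 0.78 to 3.52 (limma adjusted p = 0.152). Without EtOH replicate 3 the difference for Flt1 fell to 0.66. Flt4, the lymphatic receptor gene, had 0.51, 46.8 and 3.39 in EtOH and 13.9, 173 and 34.6 in TAM (log2 difference 2.73, limma adjusted p = 0.460, and 0.0710 in the blocked fit). Kdr and Nrp2 thus passed the blocked test in opposite directions, and 4 of the 5 genes had a positive difference. Of the TIE receptors, Tek (TIE2) did not pass the filter, with 31.3, 7.60 and 12.4 normalized counts in EtOH and 8.05, 1.66 and 8.51 in TAM, and Tie1 was listed at 0 in 5 libraries and at 1.66 in TAM replicate 2.

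The other angiopoietin family genes all had negative differences, and 0 of the 3 tested were called with or without the block. Angptl6 had 145, 205 and 185 normalized counts in EtOH and 78.0, 52.8 and 28.4 in TAM, with no overlap (log2 difference −1.83, limma adjusted p = 0.141, and 0.112 with the block). All 3 TAM values lay below all 3 EtOH values for 11.4% of all genes tested. Angptl1 had 31.2, 41.0 and 103 in EtOH and 11.6, 8.36 and 39.7 in TAM (log2 difference −1.63), lower in all 3 pairs. Angpt4, a further TIE2 ligand gene, had 753, 852 and 379 normalized counts in EtOH against 305, 237 and 637 in TAM (log2 difference −0.80), with overlap. Angptl7 stayed between 3.02 and 6.23 normalized counts and was not tested.

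Of 10 listed partners and processing genes found in the table, 7 were tested. Without the block 0 were called, against 0.244% of all genes, and with it 2 were, against 1.62%. Ccbe1, whose product helps to activate VEGF-C, had 40.3, 232 and 76.9 normalized counts in EtOH and 207, 936 and 498 in TAM. Ccbe1 rose by 2.34 on the log2 scale with the block (limma adjusted p = 0.0237; 0.256 without it), and the call was lost without pair 3. Adamts3, the protease that works with it, was between 0 and 0.66. Pcsk5, a proprotein convertase gene, had 104, 43.8 and 19.3 in EtOH and 1753, 346 and 107 in TAM, and rose by 3.14 with the block (limma adjusted p = 0.0345; 0.268 without it). The integrin genes Itga5 and Itgb1, for a receptor of ANGPTL2, were highest in TAM replicate 2, with 24416 and 35908 normalized counts, and did not pass the test.

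Of 12 tested PPAR target genes, a list that includes genes regulated together with Angptl4 in fasting tissues, 0 were called with or without the block, with a median log2 difference of 0.13. Pparg had the largest positive difference of this list, 1.06, and is itself a PPAR gene, placed there with Ppara and Ppard. Pdk4 had its lowest value of 128 normalized counts in TAM replicate 2. Among 10 tested angiogenic ligands of other families, 0 were called without the block, against 0.244% of all genes, and 0 with it, against 1.62%. Hgf, for hepatocyte growth factor, had the largest positive difference at 0.95 (limma adjusted p = 0.499), and Apln, the apelin gene, the largest negative one at −3.51 (limma adjusted p = 0.323). Apln had 16.9, 840 and 76.9 normalized counts in EtOH and 6.34, 20.9 and 3.93 in TAM, so its highest value too was that of EtOH replicate 2. Of 12 tested genes listed as angiogenesis inhibitors, 0 were called without the block and 1 with it, against 0.244% and 1.62% of all genes. Of the 12, 9 had negative differences, as did 6390 of all 11877 genes tested. Col18a1, the collagen gene that holds endostatin, had 2146, 1884 and 3390 normalized counts in EtOH and 921, 519 and 1151 in TAM. Col18a1 fell by 1.54 on the log2 scale with the block (limma adjusted p = 0.0372; 0.152 without it), and the call was lost without pair 3. Isg15, an interferon-induced gene placed in this list, had its largest positive difference, 1.06 (limma adjusted p = 0.185). Whether it acts as an inhibitor here was not tested.

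The tested genes most like each member over the 6 libraries were found by Pearson's r of log2(normalized counts + 1), as a description. Angpt1 was closest to Tnfrsf11b (osteoprotegerin, r = 0.999), Angptl2 to Sdc3 (a syndecan, r = 0.994), Angptl4 to Fam13c (r = 0.995) and Figf to Cand2 (r = 0.988). Second for Angpt1, Angptl2 and Angptl4 came 9930013L23Rik, Trfr2 and Dirc2, with r of 0.996, 0.993 and 0.994. Vegfa was closest to Gm129 (r = 0.998) and Patl1 (r = 0.994), and without EtOH replicate 2 these values were 0.927 and 0.861. Angpt2 was closest to Phf8 and Gsta4 (r = 0.997 and 0.989), Vegfb to Tmem194b and Cobra1 (r = 0.994 and 0.989), and Vegfc to Rpe and Pigm (r = 0.958 and 0.954). With 6 libraries such values are common, since between 2 and 119 genes had r above 0.95 with a given member.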

How the data were processed

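Alignment by the authors was with TopHat against mm9, gene counting with HTSeq, and scaling by TMM in edgeR, per the paper's methods and the submitters' processing notes. The signal deposited by the authors holds normalized counts per gene and library. Its scaling is not named, the values are not whole numbers, and whole reads could be read back for TAM replicate 2 only, so no count model was run. Totals were 14952367 to 17314953 per library. Differences in log2(normalized counts + 1) were tested with limma 3.58.1 in R 4.3.3, using an intensity trend. Genes were kept at 16.2 normalized counts or more (1 c.p.m.) in at least 3 libraries, and p-values were adjusted over all 11877 of them (Benjamini-Hochberg). The fit was also run on simulated data with the same spread for every gene and library. That run held no outlying library, so it does not check the fit for replicate 2. After subtracting group means, EtOH and TAM libraries of 1 number correlated with r of 0.24, 0.29 and 0.42 across genes, against −0.31 to 0.04 between other numbers. On this ground, and not from the labels beyond their numbers, the numbers were taken to pair the libraries, and a fit with the replicate block is given beside the main one. Positions and exon lengths are from GENCODE vM1 on mm9, counted from 1. The table's own starts count from 0.

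All members, the lists (VEGF receptors, TIE receptors, other family genes, partners, oxygen sensing, hypoxia, PPAR targets, other ligands, inhibitors and 6 sets of cell markers), the rule for named genes and the alternatives were chosen with earlier results of these data known. By that rule each member is named, with every receptor and family gene. From the other lists it names called genes, or else the largest difference in each direction, and it adds the 2 genes most like each member. Some genes that the rule names are not reported here. Genes named beyond it were picked after their values were seen. They were Cdh5, Pecam1, Esam, Prox1, Vwf, Erg, Lyve1, Lpl, Adamts3, Itga5, Itgb1, Pdk4, Hif1a, Egln3 and the examples of hypoxia-responsive genes. Alternatives were other scalings, filters, pseudocounts, the block, library weights, no trend and left-out libraries. Figures used Python 3.11.15 and matplotlib 3.10.9.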

Additional observations from a re-analysis of the deposited data

How the results depend on the processing

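Without the replicate block 29 genes were called over the whole table. The count was 17 with no filter on low values, 18 with at least 10 normalized counts in every library, 192 with the replicate block and 742 with library weights. It ranged from 0 to 17 with 1 library left out, from 0 to 12 with both libraries of a number left out, and from 104 to 924 when that was done with the block (201 without pair 1). The other settings stayed within 1.5 times. Of the members, 0 were called under every setting except library weights, where 1 was (Angptl2), and the blocked fits of 2 pairs, where 0 to 3 were (Angpt1 without pair 1, and Angpt1, Angpt2 and Angptl2 without pair 2). Over the 22 alternatives Angpt1 stayed between 1.87 and 3.16 on the log2 scale, Angpt2 between 0.37 and 1.79, Angptl2 between 0.95 and 2.23, and Vegfb between −0.82 and −0.12, all without a change of sign. With libraries left out, Vegfa ranged from −1.37 to 0.01, Vegfc from −0.33 to 0.68, Figf from −0.68 to 0.37 and Angptl4 from −0.67 to 0.46. Library weights turned Vegfc to −0.61, Figf to 0.14 and Angptl4 to 0.10, and the cause was not tested. In the blocked fit Vegfc was −0.04 without pair 1 and −0.33 without pair 2, and Figf was 0.16 without pair 2. The replicate block changed no call on a member. Blocked fits of 2 pairs have 1 residual degree of freedom per gene before moderation. Unknown read depth in 5 libraries limits what can be said of Pgf, Angpt2, Tek and Flt4, which had low normalized counts in most libraries. It also limits the size given for the fall of Kdr, whose TAM values were all under 16.2 normalized counts.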

Other observations

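Markers of other cell types were followed as lists. Of 17 endothelial markers 3 were tested, and besides Kdr, Eng (endoglin) had 1297, 1255 and 1136 normalized counts in EtOH and 2846, 2655 and 1917 in TAM (log2 difference 0.99). Its limma adjusted p was 0.123, and 0.0710 under the block. The endothelial list summed to 1323 to 1581 normalized counts in EtOH and 2022 to 2959 in TAM, most of it Eng. Of 9 mural cell markers 6 were tested and 0 called, with sums of 5705 to 7923 in EtOH and 6858 to 8782 in TAM. In that list Myh11, a smooth muscle myosin gene, had the largest positive difference, 2.26 (limma adjusted p = 0.156), and Cspg4 the largest negative one, −0.63.

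Of 10 macrophage markers 4 were tested and 0 called, Emr1 and Tyrobp were listed at 0 in all libraries, and Lyz2 and Cd68 had the largest differences in each direction, 1.48 and −0.59. That list summed to 205 to 528 normalized counts in EtOH and 377 to 562 in TAM. Keratinocyte markers had 2 tested genes and 0 calls, with Krt10 at −0.02 and Trp63 at −2.11, and sums of 82.5 to 92.2 in EtOH and 66.1 to 283 in TAM. Krt1 was listed at 0 in all libraries. Adipocyte markers had 2 tested genes, Lipe at 0.04 and Fabp4 at −0.26, 0 calls, and sums of 119 to 436 and 130 to 171, with Lep listed at 0. Of 10 fibroblast markers all were tested and 0 called. Thy1 had the largest positive difference, 1.36 (limma adjusted p = 0.295), and Lum, the lumican gene, the largest negative one, −2.38 (limma adjusted p = 0.236). The part of these markers in the differences of the ligand and receptor genes was not tested.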
